A study of Mus musculus with 163 samples.

Results

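Figla, Nobox, Lhx8, Sohlh1, Sohlh2, Tbpl2 and Taf4b encode transcription factors and transcription machinery of the female germline. They were chosen by name, as the genes of the count table whose Entrez identifier belongs to 1 of these 7 symbols. The table held 21950 genes, and 6 of the 7 are described here. Lhx8 was not analysed here. Single mouse oocytes had been profiled by Smart-seq2, which makes full-length cDNA from the polyadenylated RNA of 1 cell, and oocytes in 7 groups were listed.

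Growing oocytes (GROs) are meiotically arrested oocytes of primary and secondary follicles that are increasing in volume, and fully grown oocytes (FGOs) have ended that growth. GROs were derived from an induced pluripotent stem cell line (iPSC-derived GROs, 23 oocytes), from gonads of E12.5 embryos (gonad-derived GROs, 24 oocytes) or were isolated from mice (in vivo GROs, 24 oocytes). FGOs came from the same 3 sources (24 iPSC-derived, 24 gonad-derived and 20 in vivo), and from follicles isolated at 6 days postpartum (6 dpp) and grown in culture (24 oocytes). The stem cell source was 1 female line, BVSC-iPSC, made from tail tip fibroblasts of an adult and carrying Blimp1-Venus and Stella-ECFP transgenes. In its derivation the cells passed through in vitro primordial germ cell differentiation (IVP), and were then aggregated with somatic cells of E12.5 gonads from outbred Swiss Webster mice. Germ cells were depleted from those gonads, and the study presumed that a few oocytes of such aggregates still came from them; how many did so here was not tested. Gonad-derived oocytes entered at the next step, in vitro oocyte differentiation (IVD), and 6 dpp oocytes entered at in vitro growth (IVG). The labels give neither age nor strain for the in vivo oocytes. Cultured GROs were larger than in vivo GROs in the study's measurements, so oocyte size moved with source.

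No label names an animal, embryo or culture behind an oocyte. Each group therefore counted as 1 sample, no test was made, and the spread between oocytes is not an error of the condition. Levels are pooled CPM, the reads of a gene summed over the oocytes of a group per 1000000 reads summed over the same oocytes. Their exact Poisson 95% intervals cover counting error only. A CPM is a share of the sequenced RNA, so less transcript of a gene and more transcript of other genes cannot be told apart. Totals ran from 2.17 M reads (1 M is 1000000) in a gonad-derived FGO to 13.7 M in an iPSC-derived GRO, with group medians between 6.66 M and 7.16 M. All 10 genes of an oocyte marker list (Zp3, Gdf9, Bmp15, Dppa3 and others) were above 1 CPM in every group. Of 12 granulosa markers analysed, the summed CPM had a median of 130 to 174 in the GRO groups and of 330 to 361 in the FGO groups, mostly from Esr2 and Cyp19a1, and it reached 1976 in 6 dpp FGO 12. Of the same list, Amh was at or under 1.10 CPM in every group, while pooled Gja1 was at 60.0 CPM in 6 dpp and 30.6 in in vivo FGOs against 0.42 to 1.61 in GROs. These values rested on single oocytes, since Gja1 was at 11.3 CPM without 6 dpp FGO 12 (1208 CPM) and at 14.2 without in vivo FGO 19 (294 CPM). In 6 dpp FGOs Inhba was at 9.91 CPM, Cyp11a1 at 8.04 and Hsd17b1 at 8.04, and without FGO 12 at 3.15, 2.53 and 5.69. The 8 theca and stroma markers summed to medians of 1.66 to 3.80 CPM, with 50.9 in 6 dpp FGO 12 and 38.9 in gonad-derived FGO 18, the 2 cumulus markers analysed to 0 to 1.91 and the 3 blood markers to 0. On the first principal component of all oocytes, which separated most FGOs from GROs, 4 in vivo FGOs (numbers 5, 7, 19 and 22) had negative scores as the GROs did. Of these, FGOs 19 (-4.90) and 22 (-8.78) still lay above the highest GRO (-8.88).

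The basic helix-loop-helix (bHLH) proteins SOHLH1 and SOHLH2 act in oocytes of primordial follicles and can pair with each other. FIGLA, another bHLH protein, pairs with E proteins such as TCF3 on the E-boxes of the zona pellucida genes. NOBOX is a homeodomain protein that binds promoters of oocyte genes such as Gdf9 and Pou5f1. LHX8 is a LIM-homeodomain protein of early oocytes. TBPL2 (TBP2, TRF3) is a relative of the TATA-binding protein TBP that takes part in transcription initiation in growing oocytes together with TFIIA, and TAF4B is a gonad-enriched relative of the TFIID subunit TAF4. Mouse mutants of these genes are known for loss of oocytes, arrested follicles or female infertility. Several of them, with Stat3, Dynll1 and Sub1, belong to a set of factors that was used to turn pluripotent cells into oocyte-like cells.

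The stretches around the start sites of Sohlh1, Figla, Tbpl2 and Nobox are shown as examples of members with lower levels in FGOs than in GROs from every source compared (the first 3) and of Nobox, which differed least over the 7 groups. Each stretch runs from 250 bases before to 50 bases after the start site in RefSeq on GRCm38.p6, is printed 5′ to 3′ on the strand of the gene, and has E-boxes (CANNTG, the letters bHLH proteins bind) in capitals.
Sohlh1 (chr2:25847199-25847498, minus strand): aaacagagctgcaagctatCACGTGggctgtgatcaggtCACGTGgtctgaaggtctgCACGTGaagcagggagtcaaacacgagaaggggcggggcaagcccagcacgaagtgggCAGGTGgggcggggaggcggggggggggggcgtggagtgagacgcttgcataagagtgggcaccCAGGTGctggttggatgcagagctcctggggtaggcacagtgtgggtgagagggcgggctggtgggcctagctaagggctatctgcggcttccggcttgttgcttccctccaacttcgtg
Figla (chr6:86016941-86017240, plus strand): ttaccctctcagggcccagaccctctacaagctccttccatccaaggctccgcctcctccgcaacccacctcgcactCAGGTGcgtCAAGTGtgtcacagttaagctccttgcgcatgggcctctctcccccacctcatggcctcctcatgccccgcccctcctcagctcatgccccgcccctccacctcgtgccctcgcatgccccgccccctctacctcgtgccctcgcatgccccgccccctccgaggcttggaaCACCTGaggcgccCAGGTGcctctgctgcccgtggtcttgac
Tbpl2 (chr2:24096546-24096845, minus strand): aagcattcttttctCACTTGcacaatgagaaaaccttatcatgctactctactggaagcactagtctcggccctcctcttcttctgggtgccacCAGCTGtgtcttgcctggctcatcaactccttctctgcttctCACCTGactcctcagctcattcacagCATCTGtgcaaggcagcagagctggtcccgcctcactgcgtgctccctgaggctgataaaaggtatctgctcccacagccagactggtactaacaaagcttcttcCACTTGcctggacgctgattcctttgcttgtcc
Nobox (chr6:43309505-43309804, minus strand): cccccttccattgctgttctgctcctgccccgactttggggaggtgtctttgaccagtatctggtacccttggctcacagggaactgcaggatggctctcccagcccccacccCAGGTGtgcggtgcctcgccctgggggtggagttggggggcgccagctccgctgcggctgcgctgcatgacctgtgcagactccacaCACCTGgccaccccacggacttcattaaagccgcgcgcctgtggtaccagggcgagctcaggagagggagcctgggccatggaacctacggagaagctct

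Sohlh1 had 5 E-boxes in this window, Tbpl2 had 5, Figla had 4 and Nobox had 2. The Sohlh2 window (chr3:55181794-55182093, plus strand) had 1. Among 32817 RefSeq promoter windows of the same length, 72.3% held at least 1 E-box, 6.49% held at least 4 and 2.10% held at least 5. In the Sohlh1 window 3 of the 5 were CACGTG, which overlaps CANNTG and reads the same on both strands, with first bases at positions -231, -211 and -192 from the start site. At least 1 CACGTG was in 7.15% of all windows, and at least 3 in 0.0884%. Both strands were also searched for TAATTG, which NOBOX binds and which 8.00% of windows held. The general homeodomain letters TAATTA were in 5.30% of windows. The TATA box letters TATAAA were in 13.6% of windows. The 5 windows held no match to these 3 sets of letters. For Figla and Nobox the start site used lies inside the annotated span of the gene. The windows were 52.0% to 67.0% G or C, against a median of 52.7%.

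Sohlh1 (Entrez 227631, chr2:25842995-25847248, 8 exons in the GENCODE M21 transcript) was the member that differed most between stages. Its pooled level was 18.3 CPM for in vivo GROs (95% counting interval 17.7 to 19.0), 18.1 for those derived from iPSCs (17.4 to 18.7) and 6.59 for those derived from gonads (6.19 to 7.00). In FGOs the in vivo group stood at 0.993 CPM (0.838 to 1.17), the 6 dpp group at 0.251 (0.179 to 0.342), the gonad-derived group at 0.443 (0.347 to 0.558) and the iPSC-derived group at 0.493 (0.392 to 0.612). Every GRO group was thus above every FGO group, although the ranges of single oocytes overlapped. Single iPSC-derived GROs ran from 0 to 76.2 CPM with a median of 11.7, gonad-derived GROs from 0.139 to 41.5 with a median of 2.40, and in vivo GROs from 0.398 to 84.1 with a median of 12.7. In FGOs the medians lay between 0.140 and 0.202 CPM, and the highest oocytes were at 13.8 (in vivo), 1.25 (6 dpp), 3.74 (gonad-derived) and 2.67 (iPSC-derived). The 34 oocytes with 0 reads of Sohlh1 allow up to 0.381 to 1.38 CPM (3 reads of their totals). At least 1 read was found in 22 of 23 iPSC-derived, 24 of 24 gonad-derived and 24 of 24 in vivo GROs. Among FGOs this held for 12 of 20 in vivo, 17 of 24 6 dpp, 15 of 24 gonad-derived and 15 of 24 iPSC-derived oocytes. With each library thinned to 2000000 reads, the counts were 21, 22 and 23 in the GRO groups and 9, 6, 13 and 9 in the FGO groups, in the same order. In vivo FGO 7 alone held most of the Sohlh1 of its group, and the 4 highest in vivo FGOs together held 89.5% of the summed CPM. Without in vivo FGOs 5, 7, 19 and 22 the pooled level of the group was 0.237 CPM, within the counting interval of the 6 dpp group (0.179 to 0.342).

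Sohlh2 (Entrez 74434, chr3:55182044-55209957, 11 exons) was highest in the oocytes derived from iPSCs, at both stages. It was at 20.9 CPM for in vivo GROs (20.2 to 21.7), 84.6 for those derived from iPSCs (83.2 to 86.0) and 23.8 for those derived from gonads (23.0 to 24.5). Among FGOs the in vivo group stood at 16.6 CPM (16.0 to 17.3), the 6 dpp group at 15.3 (14.7 to 15.9), the gonad-derived group at 23.4 (22.7 to 24.1) and the iPSC-derived group at 38.0 (37.1 to 39.0). The 2 iPSC-derived groups were the highest of the 7. Single iPSC-derived GROs ran from 12.8 to 236 CPM (median 81.5), gonad-derived GROs from 7.05 to 95.4 (median 19.1) and in vivo GROs from 3.60 to 64.9 (median 14.0). Of the 23 iPSC-derived GROs, 15 were above every in vivo GRO and 7 were above every gonad-derived GRO, so the ranges overlapped in both cases. Single FGOs ran from 7.32 to 110 CPM in the iPSC-derived group (median 30.8), from 4.29 to 81.8 in the gonad-derived (median 22.1), from 2.15 to 64.4 in the 6 dpp (median 11.2) and from 8.38 to 33.3 in the in vivo group (median 15.0). Between neighbours in the order of levels, the ranges from the 25th to the 75th percentile overlapped in all 6 cases.

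Figla (Entrez 26910, chr6:86016494-86020996, 3 exons) was at 161 CPM for in vivo GROs (159.3 to 163.2), 137 for those derived from iPSCs (135 to 138) and 140 for those derived from gonads (138 to 141). In FGOs the in vivo group stood at 58.0 CPM (56.8 to 59.2), the 6 dpp group at 52.9 (51.8 to 54.0), the gonad-derived group at 46.5 (45.5 to 47.6) and the iPSC-derived group at 44.3 (43.3 to 45.3). The groups of a stage lay close together and the stages lay apart. Single GROs ran from 104 to 190 CPM (iPSC-derived, median 138), 108 to 192 (gonad-derived, median 137) and 102 to 238 (in vivo, median 157). Single FGOs ran from 27.7 to 61.8 CPM (iPSC-derived, median 43.6), 3.45 to 66.3 (gonad-derived, median 48.0), 41.8 to 81.7 (6 dpp, median 50.7) and 42.0 to 113 (in vivo, median 49.9). Apart from in vivo FGO 7, at 113 CPM, no FGO reached the lowest GRO of any group. The lowest value, 3.45 CPM, came from gonad-derived FGO 19, whose nearest neighbour in the group was at 36.0.

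Nobox (Entrez 18291, chr6:43303674-43310072, up to 9 exons) was the most abundant member and the one that differed least between groups, by 1.55-fold from the lowest to the highest. Its pooled level was 1121 CPM for in vivo GROs (1116 to 1126), 1442 for those derived from iPSCs (1436 to 1448) and 1214 for those derived from gonads (1208 to 1219). Among FGOs the in vivo group stood at 1160 CPM (1154 to 1165), the 6 dpp group at 1065 (1060 to 1070), the gonad-derived group at 929 (925 to 934) and the iPSC-derived group at 1036 (1032 to 1041). The iPSC-derived GROs headed this order, and their range from the lower to the upper quartile lay above that of the gonad-derived GROs that came next. Single GROs ran from 1194 to 1669 CPM (iPSC-derived, median 1446), 1017 to 1364 (gonad-derived, median 1203) and 744 to 1331 (in vivo, median 1156). Single FGOs ran from 728 to 1279 CPM (iPSC-derived, median 1020), 322 to 1245 (gonad-derived, median 944), 871 to 1257 (6 dpp, median 1058) and 818 to 1595 (in vivo, median 1145). The lowest of all, 322 CPM, was again gonad-derived FGO 19, with the next oocyte of its group at 727. That oocyte had 6.95 M reads, no read of Sohlh1, and the highest Sohlh2 (81.8 CPM) and Tbpl2 (27.8 CPM) of its group.

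Tbpl2 (Entrez 227606, chr2:24071366-24096595, 7 exons) was at 79.0 CPM for in vivo GROs (77.7 to 80.4), 96.2 for those derived from iPSCs (94.7 to 97.7) and 66.9 for those derived from gonads (65.6 to 68.2). In FGOs the in vivo group stood at 32.0 CPM (31.1 to 33.0), the 6 dpp group at 16.6 (16.0 to 17.2), the gonad-derived group at 18.0 (17.4 to 18.7) and the iPSC-derived group at 33.9 (33.0 to 34.8). The 2 FGO groups near 33 CPM differed in their spread. Single iPSC-derived FGOs ran from 25.6 to 43.3 CPM (median 32.8), while in vivo FGOs ran from 12.4 to 76.1 with a median of 20.2. Gonad-derived FGOs ran from 12.4 to 27.8 CPM (median 16.5) and 6 dpp FGOs from 11.8 to 22.8 (median 16.6). Of the 24 iPSC-derived FGOs, 23 were above every gonad-derived FGO, and all 24 were above the in vivo median. Single GROs ran from 55.0 to 151 CPM (iPSC-derived, median 94.9), 46.5 to 88.8 (gonad-derived, median 67.9) and 56.3 to 126 (in vivo, median 76.1).

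Taf4b (Entrez 72504, chromosome 18, 15 exons) was at 78.4 CPM for in vivo GROs (77.0 to 79.7), 54.8 for those derived from iPSCs (53.6 to 55.9) and 58.0 for those derived from gonads (56.8 to 59.2). Among FGOs the in vivo group stood at 31.8 CPM (30.9 to 32.8), the 6 dpp group at 34.3 (33.4 to 35.2), the gonad-derived group at 30.1 (29.3 to 31.0) and the iPSC-derived group at 22.0 (21.3 to 22.7). The iPSC-derived group was the lowest at both stages. Single GROs ran from 25.9 to 92.7 CPM (iPSC-derived, median 48.3), 31.1 to 79.8 (gonad-derived, median 57.0) and 29.9 to 115 (in vivo, median 80.2). Single FGOs ran from 8.29 to 38.4 CPM (iPSC-derived, median 17.5), 12.8 to 64.1 (gonad-derived, median 30.3), 19.4 to 52.4 (6 dpp, median 31.9) and 11.4 to 69.2 (in vivo, median 27.4). These ranges overlapped between all groups next to each other in the order of levels. A processed pseudogene is annotated inside the gene on the same strand, so reads shared with it are uncertain, and the other 5 members overlap no annotated gene.

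**Figure D1:**
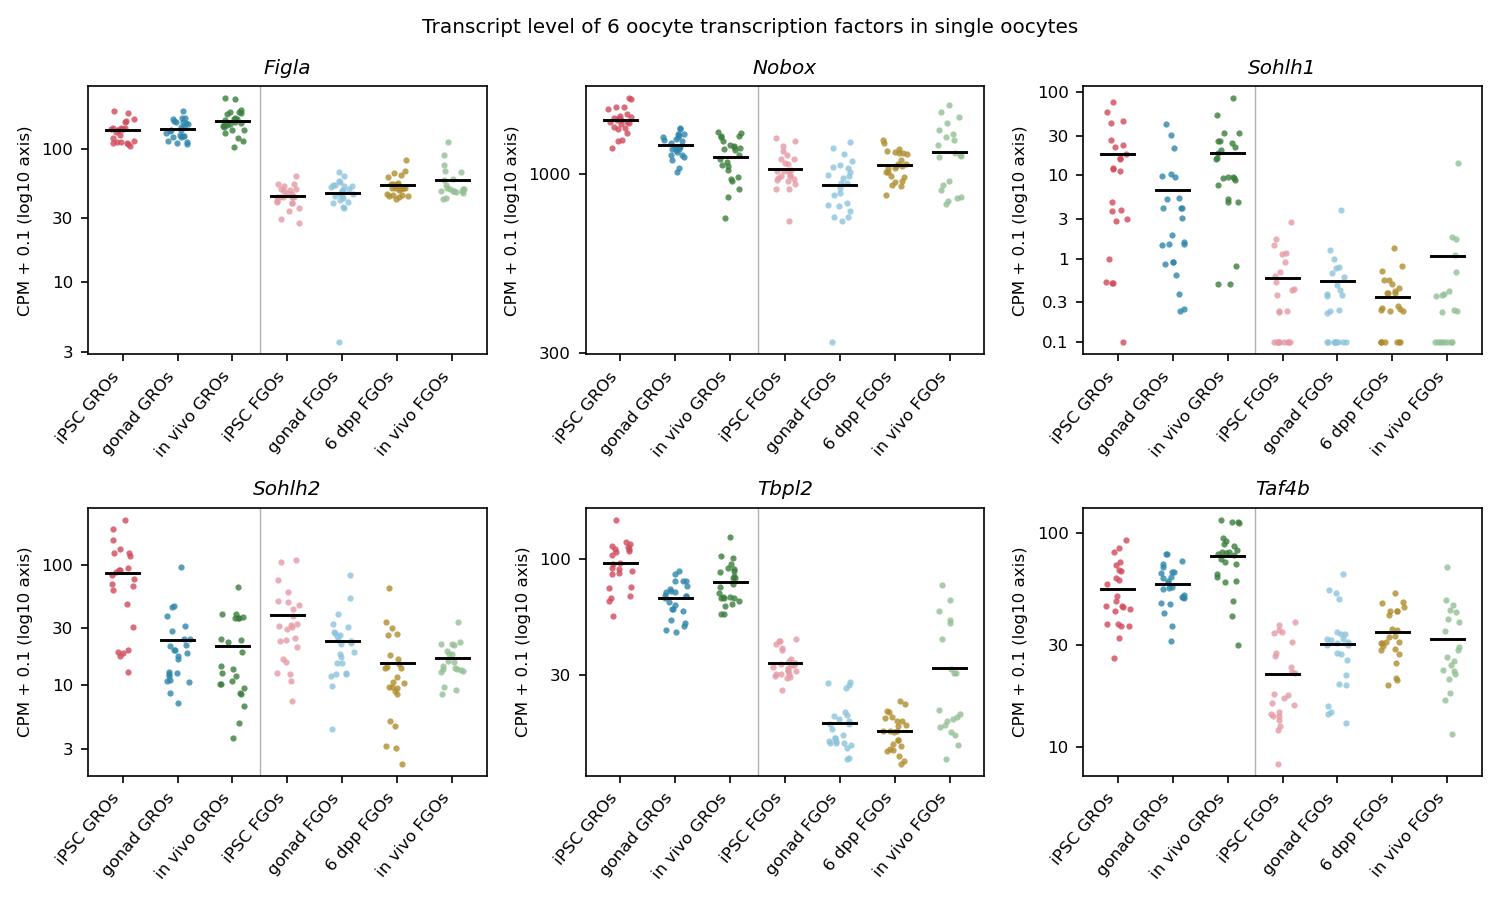
CPM of each single oocyte (points) and the pooled CPM of its group (black lines) for 6 genes in 7 groups, on a log10 axis after adding 0.1 so that oocytes with 0 reads sit at 0.1. Figla, Sohlh1, Tbpl2 and Taf4b were lower in every FGO group than in every GRO group, Nobox stayed between 929 and 1442 CPM, and Sohlh2 was highest in the iPSC-derived groups.

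Levels of different genes were compared per kilobase (1000 bases) of the exonic length given in the table. In in vivo GROs Nobox stood at 498 CPM per kilobase, Figla at 183, Tbpl2 at 39.4, Taf4b at 13.6, Sohlh1 at 11.4 and Sohlh2 at 7.51. Nobox was there above 99.6% of all genes of the table and Sohlh2 above 73.0%. In in vivo FGOs Nobox stood at 515 CPM per kilobase, Figla at 66.0, Tbpl2 at 16.0, Sohlh2 at 5.96, Taf4b at 5.54 and Sohlh1 at 0.618. The order of the first 3 was the same at both stages, and Sohlh1 went from above 77.5% to above 50.7% of all genes. The Sohlh1 level behind the second percentile rested on few oocytes. It was 0.993 CPM before division by length, and 0.237 CPM without in vivo FGOs 5, 7, 19 and 22.

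The members also differed in how much single oocytes of 1 group varied. The coefficient of variation (SD over mean of CPM) of Nobox was 7.59% to 21.2% over the 7 groups, that of Figla 15.9% to 30.4%, that of Tbpl2 14.5% to 61.3% and that of Taf4b 21.8% to 43.8%. Sohlh2 varied by 35.6% to 87.7% and Sohlh1 by 103% to 301%. The 301% came from in vivo FGOs, where FGO 7 was at 13.8 CPM and the median at 0.140. In FGOs Sohlh1 rested on 40 to 144 reads per group, so counting error adds to its variation there. Among genes with at least 5 pooled CPM the median was between 19.4% and 24.9% in each group. Sohlh2 varied more than 98.5% of those genes in gonad-derived GROs and more than 99.0% in 6 dpp FGOs, whereas Nobox varied less than nearly all of them in gonad-derived GROs (1.04% were lower). The in vivo FGOs were the group in which 5 members varied most (Figla, Nobox, Sohlh1, Tbpl2 and Taf4b) and Sohlh2 least.

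Growth was read by setting the FGOs of a source against its GROs, as the log2 ratio of pooled CPM + 0.5. The added 0.5 CPM understates the change of low genes. Genes with more than 1 CPM in at least 3 oocytes of both groups together were compared, and a gene counted as past 2-fold where this ratio reached 1 in either direction. The 10 comparisons reuse the 7 groups, so they share oocytes. All 6 members passed this filter in every comparison. Sohlh1 was above 1 CPM in 17 to 21 GROs per group. Among FGOs this held for 4 in vivo, 5 iPSC-derived and 2 gonad-derived oocytes, and for 1 oocyte of the 6 dpp group. In growth of gonad-derived oocytes it therefore passed this filter only through the GROs. Between 6 dpp and in vivo FGOs it passed only through the in vivo group. Between iPSC-derived and gonad-derived FGOs it passed only through the iPSC-derived group. During growth in vivo 4 of the 6 members were lower by more than 2-fold, where 13.2% of 13148 genes were, and none was higher by as much, where 10.4% of genes were. The 4 were Sohlh1 at -3.66, Figla at -1.47, Tbpl2 at -1.29 and Taf4b at -1.29. Sohlh2 was at -0.32 and Nobox at 0.05. The median ratio of the 6 was -1.29, against -0.11 for all genes compared.

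Past 4-fold there was 1 member, Sohlh1, where 1.95% of genes were lower by as much. On raw CPM, Sohlh1 was 18.4-fold lower in in vivo FGOs (counting interval 15.6 to 22.0). With in vivo FGO 7 left out its log2 ratio was -4.45, and without the 4 in vivo FGOs with negative scores it was -4.67. It was -2.76 with a pseudocount of 2 and -4.17 with the edgeR coefficient. No member had FGOs that were all below all GROs, as 1.19% of genes had, although 19 of 20 in vivo FGOs had less Figla, and 17 of 20 less Tbpl2, than any in vivo GRO. Only 12 of 20 in vivo FGOs were below every in vivo GRO in Taf4b, and all 20 were below the GRO median. As a ratio of medians over oocytes Tbpl2 was at -1.89.

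In gonad-derived oocytes Tbpl2 (-1.86) and Figla (-1.57) were lower by more than 2-fold after growth in culture, where 9.98% of genes were. No member was higher, where 5.82% of genes were. Sohlh1 was at -2.91, but it passed the filter only through the GROs here. Its values in this comparison are therefore descriptions, and no call is drawn from them. Taf4b was at -0.93, just short of 2-fold, and at -1.01 without gonad-derived FGO 18. That oocyte had the most theca and stroma transcripts of its group (38.9 CPM), whose part in this value was not tested. Nobox was at -0.39 and Sohlh2 at -0.02. Sohlh1 was at -1.81 with a pseudocount of 2 and at -2.05 as a ratio of medians. The other way, it was at -3.62 with a pseudocount of 0.1 and at -3.86 with the edgeR coefficient. On raw CPM it was 14.9-fold lower (11.7 to 19.1). Figla and Tbpl2 were lower in each of the 24 FGOs than in any of the 24 GROs, a separation that 2.62% of genes showed in this direction. The Tbpl2 ratio of CPM was 3.71-fold (3.57 to 3.87) lower in FGOs.

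In iPSC-derived oocytes 5 of the 6 members were lower by more than 2-fold after growth, where 15.3% of genes were, and none was higher, where 6.69% were. With TMM scaling, which centres the ratios on the bulk of the genes, 12.9% of genes were lower and 8.73% higher. Sohlh1 was at -4.22, Figla at -1.61, Tbpl2 at -1.49, Taf4b at -1.30 and Sohlh2 at -1.14. Nobox was at -0.48. Sohlh1 was the member past 4-fold, where 3.61% of genes were lower by as much. Its ratio was -3.01 with a pseudocount of 2, -4.94 with a pseudocount of 0.1 and -5.01 with the edgeR coefficient. On raw CPM it was 36.6-fold lower (29.4 to 46.2). Figla and Tbpl2 again separated every FGO from every GRO, as 5.62% of genes did in this direction. The Sohlh2 ratio fell short of 2-fold with TMM scaling, at -0.97, and on the oocytes the study kept by size, also at -0.97. In both cultures the median ratio of the members, Sohlh1 included (-1.25 in gonad-derived and -1.39 in iPSC-derived oocytes), lay below that of all genes (-0.05 and -0.11). The summed CPM of the granulosa markers was also higher in FGO than in GRO libraries, as given above, mostly from Esr2 and Cyp19a1. Not all markers rose. Fshr was at 1.58 to 2.55 CPM in FGO groups against 1.82 to 3.23 in GRO groups, and Nr5a2 at 16.8 to 26.4 against 19.6 to 27.3. Wnt4 was lower in every FGO group than in every GRO group. The part of granulosa transcripts in the growth ratios was not tested.

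**Figure D2:**
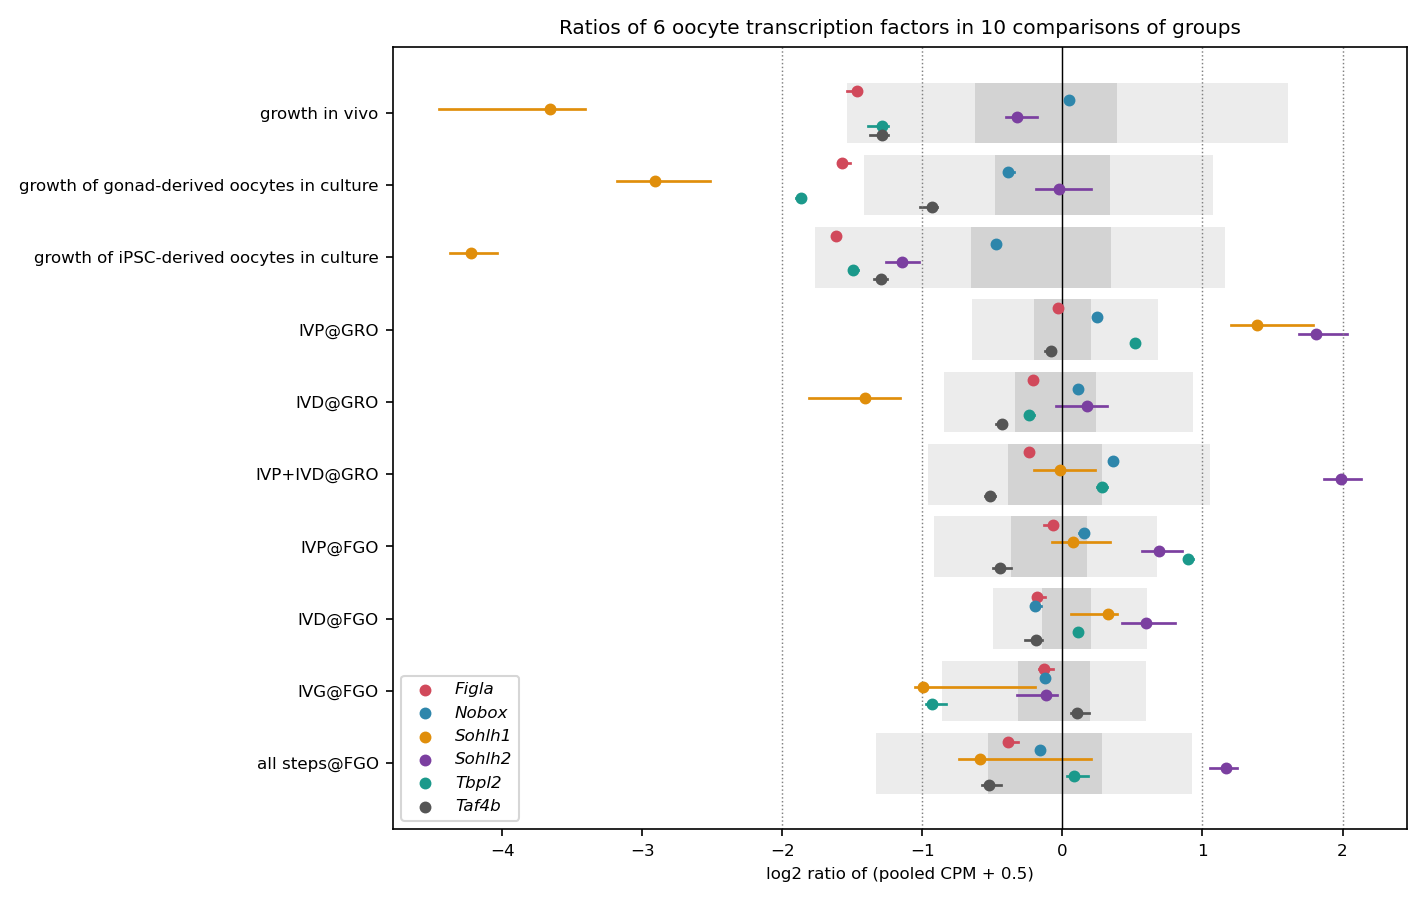
Log2 ratio of pooled CPM + 0.5 for 6 genes (points) in 10 comparisons of groups, with the range over fits that leave out 1 oocyte (lines) and the middle 50% (dark bars) and 90% (light bars) of all genes compared. In the 3 growth comparisons Sohlh1 lay between -4.22 and -2.91, and at the GRO stage Sohlh2 lay at 1.81 (IVP@GRO) and 1.99 (IVP+IVD@GRO).

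Growing oocytes of stem cell origin were compared with those from gonads by setting iPSC-derived against gonad-derived GROs (IVP@GRO). Both SOHLH genes were higher by more than 2-fold in iPSC-derived GROs, 2 of 6 members where 2.03% of genes were, and none was lower, where 1.8% were. Sohlh2 was at 1.81, which is 3.56-fold (3.43 to 3.69) on raw CPM, and Sohlh1 was at 1.39, or 2.74-fold (2.55 to 2.95). In 19 of 23 iPSC-derived GROs Sohlh2 was above the gonad-derived median, and in 18 of 23 this held for Sohlh1. Leaving out any 1 oocyte kept Sohlh2 between 1.69 and 2.03 and Sohlh1 between 1.20 and 1.79, which was at 2.07 as a ratio of medians. The score on the first component had a median of -48.5 in iPSC-derived and -35.9 in gonad-derived GROs, and within the gonad-derived GROs r with it was -0.73 for Sohlh2 and -0.51 for Sohlh1. Its part in both ratios was not tested. On the oocytes the study kept by size Sohlh2 was at 1.69 and Sohlh1 at 1.44. Tbpl2 was at 0.52, and 14 of 23 iPSC-derived GROs exceeded every gonad-derived GRO. Nobox was at 0.25, with 18 of 23 above every gonad-derived GRO. Figla was at -0.03 and Taf4b at -0.08.

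GROs that had formed in culture from gonads were then set against in vivo GROs (IVD@GRO). Sohlh1 was lower by more than 2-fold, at -1.41, 1 of 6 members where 2.75% of genes were, and none was higher, where 4.3% were. In 21 of 24 gonad-derived GROs it was below the in vivo median, and as a ratio of medians it was at -2.18. The score on the first component, with which Sohlh1 moved within each GRO group (r of -0.48 to -0.53), also differed between sources. Its median was -59.3 in in vivo, -48.5 in iPSC-derived and -35.9 in gonad-derived GROs, and its part in this ratio was not tested. Taf4b was at -0.43, and all 24 gonad-derived GROs were below the in vivo median, although the ranges overlapped. Tbpl2 was at -0.24, Figla at -0.21, Nobox at 0.11 and Sohlh2 at 0.18. Against in vivo GROs, iPSC-derived GROs (IVP+IVD@GRO) had 1 of 6 members higher by more than 2-fold, where 5.61% of genes were, and none lower, where 4.38% were. That member was Sohlh2 at 1.99, with 22 of 23 oocytes above the in vivo median, and at 1.87 on the oocytes kept by size. Sohlh1 was at -0.02, so the 2 groups with the higher Sohlh1 were the iPSC-derived and the in vivo GROs. Nobox was at 0.36, with 19 of 23 oocytes above every in vivo GRO, Tbpl2 at 0.28, Figla at -0.24 and Taf4b at -0.51.

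SOHLH1 and SOHLH2 can act as a pair, so their transcripts were also set against each other. Per kilobase, Sohlh2 made up 39.7% of the sum of both in GROs in vivo, 67.5% in those derived from gonads and 72.9% in those derived from iPSCs. Over single GROs this share had a median of 42.2% in vivo, 82.2% for gonad-derived and 82.7% for iPSC-derived oocytes, and single GROs ran from 18.7% to 100%, with overlap between all 3 groups. In the FGO groups it was 90.6% to 97.8% of the pooled sum. Within a GRO group, oocytes with more Sohlh2 also tended to have more Sohlh1. Pearson's r of log2(CPM + 1) was 0.60 over 23 iPSC-derived, 0.60 over 24 gonad-derived and 0.61 over 24 in vivo GROs, and Spearman's rho was 0.52, 0.55 and 0.66. Among FGOs r was 0.58 for iPSC-derived, -0.22 for gonad-derived, 0.03 for 6 dpp and -0.21 for in vivo oocytes. Both genes also moved with the first component within each GRO group, with r of -0.48 to -0.53 for Sohlh1 and -0.41 to -0.73 for Sohlh2, and the part of that component in their correlation was not tested. Points of 1 group may share animals or cultures, and these correlations are descriptions. In iPSC-derived GRO 23 both genes were the lowest of the group, and in gonad-derived GRO 18 both were the highest, at 41.5 CPM for Sohlh1 and 95.4 CPM for Sohlh2.

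**Figure D3:**
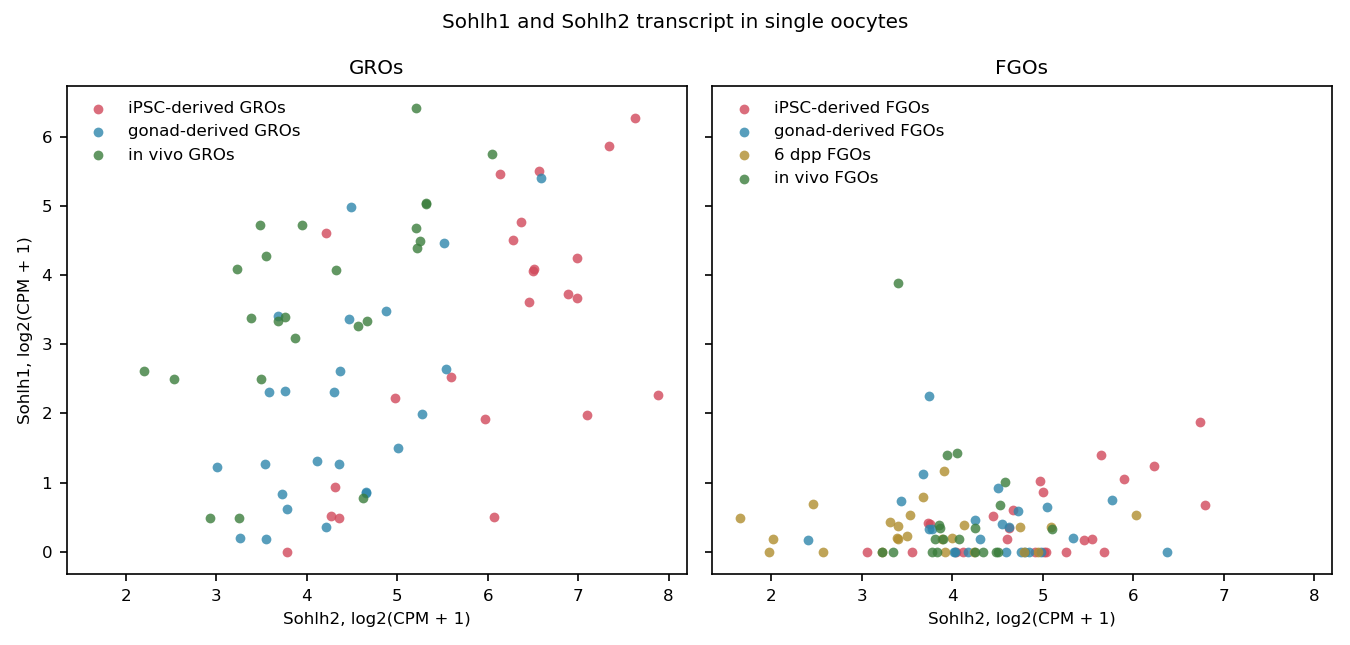
Sohlh1 against Sohlh2 in single GROs (left) and FGOs (right), each as log2(CPM + 1), coloured by group. In each GRO group the 2 varied together (r between 0.60 and 0.61), iPSC-derived GROs reached the highest Sohlh2 (236 CPM), and most FGOs lay near 0 in Sohlh1.

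At the FGO stage 1 member was past 2-fold in 1 of the 4 comparisons between sources. Between iPSC-derived and gonad-derived FGOs (IVP@FGO) no member was past 2-fold, where 2.3% of genes were higher and 3.9% lower. Tbpl2 came nearest at 0.89, or 1.88-fold (1.80 to 1.97) on raw CPM, and was higher in 23 of 24 iPSC-derived FGOs than in any gonad-derived FGO. Its ratio lay above 97.0% of genes. Sohlh2 was at 0.69, Nobox at 0.16, Sohlh1 at 0.07, Figla at -0.07 and Taf4b at -0.45. Between gonad-derived and 6 dpp FGOs (IVD@FGO) none was past 2-fold either, where 1.64% of genes were higher and 0.948% lower. Sohlh2 was at 0.60, with 22 of 24 gonad-derived FGOs above the 6 dpp median, and the other 5 lay between -0.20 and 0.33.

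Between 6 dpp and in vivo FGOs (IVG@FGO) no member was past 2-fold, where 1.25% of genes were higher and 3.12% lower, but the values of Sohlh1 and Tbpl2 rested on a few in vivo oocytes. Sohlh1 was at -0.99, just short of 2-fold, and at -0.20 without in vivo FGO 7. It passed the filter here only through the in vivo FGOs, with 4 of 20 above 1 CPM against 1 of 24 in the 6 dpp group. Its values in this comparison are therefore descriptions, and no call is drawn from them. On raw CPM it was 3.96-fold lower (2.77 to 5.77), and it was past 2-fold with a pseudocount of 0.1 (-1.64) and with the edgeR coefficient (-1.80). Tbpl2 was at -0.93, at -0.53 without in vivo FGOs 5, 7, 19 and 22, and at -0.28 as a ratio of medians. The other 4 lay between -0.13 and 0.11. Between iPSC-derived and in vivo FGOs (all steps) Sohlh2 was higher by more than 2-fold, at 1.17, 1 of 6 members where 4.21% of genes were, and none was lower, where 10.3% were. In 20 of 24 iPSC-derived FGOs Sohlh2 was above the in vivo median. Taf4b was at -0.52, Figla at -0.39 and Nobox at -0.16. Sohlh1 was at -0.59, and at 0.43 without the 4 in vivo FGOs. Tbpl2 was at 0.08, and at 0.68 as a ratio of medians.

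The 4 in vivo FGOs with negative scores had more Tbpl2, Figla, Taf4b and Nobox than the median of the other in vivo FGOs. They were taken by a cut at 0, and FGO 1 had the next score, 10.5. In FGO 1 Tbpl2 (58.0 CPM) and Nobox (1473 CPM) were above FGOs 5 and 19, so the 4 were not a separate set in these genes. Tbpl2 was 51.1 CPM in FGO 5, 76.1 in FGO 7, 53.0 in FGO 19 and 65.0 in FGO 22, against a median of 19.0 (12.4 to 58.0) in the other 16. Figla was 74.7, 113, 67.1 and 89.7 CPM in the same oocytes, against a median of 49.0 (42.0 to 68.1). Taf4b was between 43.4 and 69.2 CPM in the 4, all above the other 16, which reached 42.8. Nobox was between 1262 and 1595 CPM, against a median of 1128 (818 to 1473). Sohlh2 did not follow, at 8.38 to 23.0 CPM against 9.15 to 33.3. In vivo FGO 7, at 13.8 CPM, was the 1 oocyte of the 4 with more Sohlh1 than any of the others. Over all 20 in vivo FGOs the score on the first component and log2(CPM + 1) had a Pearson's r of -0.93 for Tbpl2, -0.92 for Figla, -0.81 for Nobox, -0.81 for Taf4b, -0.70 for Sohlh1 and 0.45 for Sohlh2. The component was computed from all genes, the members included, and r is a description. In the other 3 FGO groups r lay between -0.28 and 0.27 for Tbpl2, -0.39 and 0.27 for Figla, -0.54 and 0.26 for Nobox, -0.40 and 0.12 for Taf4b, -0.32 and -0.20 for Sohlh1 and -0.24 and 0.03 for Sohlh2.

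**Figure D4:**
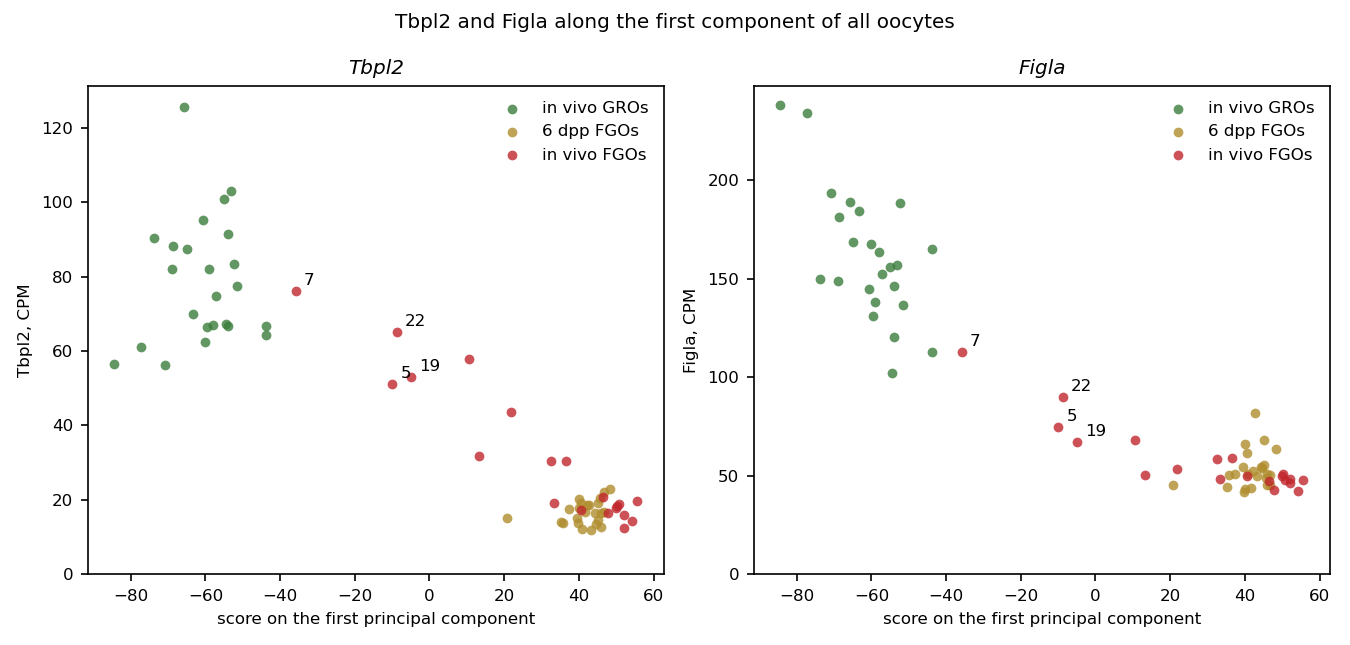
Tbpl2 (left) and Figla (right) in CPM against the score on the first principal component of all oocytes, for in vivo GROs, 6 dpp FGOs and in vivo FGOs, with in vivo FGOs 5, 7, 19 and 22 numbered. Both genes were higher in the 4 numbered oocytes, at 51.1 to 76.1 CPM for Tbpl2 and 67.1 to 113 CPM for Figla, than at the median of the other in vivo FGOs.

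TBPL2 and TAF4B have relatives that most cells use, so the share of the germline form was set beside them per kilobase. Tbpl2 made up 27.5% of the summed Tbp, Tbpl1 and Tbpl2 in GROs in vivo, 26.5% in those derived from iPSCs and 22.8% in those derived from gonads. Among FGOs the share was 13.3% in vivo, 6.2% for 6 dpp, 7.21% for gonad-derived and 11.5% for iPSC-derived oocytes. As a median over oocytes it was 8.93% for in vivo FGOs (5.67% to 25.2%), below the 11.7% of iPSC-derived FGOs, so that this order turned. Tbp itself stayed between 92.5 and 120 CPM per kilobase in all 7 groups and was the most abundant of the 3 in each. Tbpl1 (TRF2), which acts without a TATA box, was at 11.2 CPM per kilobase in GROs in vivo, 9.16 in those derived from gonads and 22.1 in those derived from iPSCs, and was past 2-fold higher in iPSC-derived than in gonad-derived oocytes at both stages (1.26 in IVP@GRO and 1.11 in IVP@FGO). It was the 1 gene of 15 in the TFIID and TBP family list past 2-fold in these 2 comparisons, where 2.03% and 2.3% of all genes were higher. Against in vivo oocytes it was at 0.97 in IVP+IVD@GRO and 0.80 in iPSC-derived FGOs. Taf4b made up 48.5% of the summed Taf4 and Taf4b in GROs in vivo, 52.6% in those derived from iPSCs and 54.4% in those derived from gonads. As medians over oocytes these shares were 53.1%, 52.1% and 53.8%, so the in vivo group was then not the lowest. Among FGOs the share was 32.5% in vivo, 33.9% for 6 dpp, 33.0% for gonad-derived and 25.8% for iPSC-derived oocytes. Single oocytes ranged widely, in in vivo GROs from 28.0% to 71.3% and in in vivo FGOs from 13.9% to 55.1%.

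**Figure D5:**
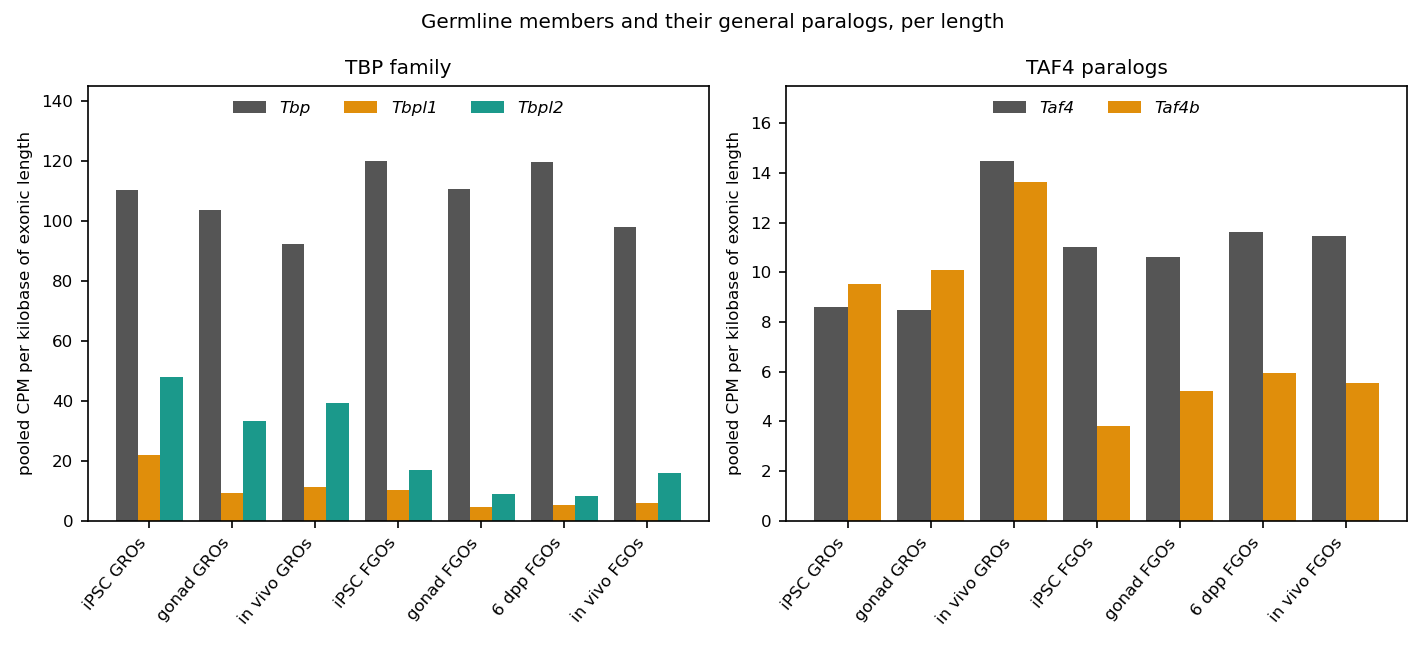
Pooled CPM per kilobase of exonic length in 7 groups for Tbp, Tbpl1 and Tbpl2 (left bars) and for Taf4 and Taf4b (right bars). Tbp stayed between 92.5 and 120, while Tbpl2 and Taf4b were lower in every FGO group than in every GRO group.

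Of a list of 16 other TFIID and TBP family genes, 15 were analysed. During growth in vivo 1 of 15 was lower by more than 2-fold (Taf1, -1.13), where 13.2% of all genes were, and none was higher, and the median ratio was -0.05 against -0.11 for all genes. In gonad-derived oocytes none of the 15 was past 2-fold, where 9.98% of genes were lower and 5.82% higher (median 0.16 against -0.05), and in iPSC-derived oocytes 1 was lower, where 15.3% of genes were (Tbpl1, -1.09; median -0.01 against -0.11). Of 8 partner genes, 1 was higher and 3 were lower during growth in vivo, where 10.4% and 13.2% of all genes were. Ldb2, which encodes a LIM domain-binding cofactor, was at 1.92, and the E proteins Tcf12, Tcf3 and Tcf4, with which bHLH factors such as FIGLA pair, were at -1.93, -1.31 and -1.10. Tcf4 was low at both stages, at 2.53 CPM in in vivo GROs and 0.911 in in vivo FGOs. In each culture 2 of 8 were higher and 2 lower, where 5.82% and 9.98% of genes were in gonad-derived and 6.69% and 15.3% in iPSC-derived oocytes. Ldb2 was at 2.03 in gonad-derived and 2.09 in iPSC-derived oocytes, and the TFIIA subunit gene Gtf2a1 was at 1.22 and 1.34. The lower ones were Gtf2a1l, the germ cell relative of Gtf2a1, at -1.31 and -1.07, and Tcf12 at -1.15 and -1.22. Between sources 1 of the 8 was past 2-fold, Tcf12 at -1.003 in IVP+IVD@GRO, where 4.38% of genes were lower, and it was at -0.98 in IVD@GRO. Of Stat3, Dynll1 and Sub1, Dynll1 was lower by more than 2-fold in vivo (-1.16) and in gonad-derived oocytes (-1.24), and none was past 2-fold in iPSC-derived oocytes.

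A list of 12 genes that depend on these factors in mutants, or that they are known to bind, was mixed. During growth in vivo 2 of 12 were lower by more than 2-fold, the zona pellucida gene Zp2 (-1.05) and Padi6 (-1.01), where 13.2% of all genes were, and none was higher, where 10.4% were. The median of the list was -0.43 against -0.11 for all genes. In gonad-derived oocytes, where 9.98% of genes were lower, 4 of 12 were (Padi6 -1.63, Zp2 -1.49, Zp3 -1.26 and Zp1 -1.16), with a list median of -0.19 against -0.05. In iPSC-derived oocytes, where 15.3% of genes were lower, 5 of 12 were (Padi6 -2.34, Zp2 -2.08, Zp1 -1.77, Zp3 -1.46 and Gdf9 -1.18), with a list median of 0.02 against -0.11. No gene of the list was past 2-fold in IVP@GRO, IVD@GRO, IVP+IVD@GRO, IVP@FGO or IVD@FGO, where 2.59% to 9.99% of all genes were, both directions together. Of the 12, 1 was lower in 6 dpp than in in vivo FGOs (Padi6, -1.10), where 3.12% of genes were, and 3 were lower in iPSC-derived than in in vivo FGOs, where 10.3% of genes were (Padi6 -1.45, Zp2 -1.30 and Zp1 -1.09).

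Figla and the zona pellucida genes varied together across oocytes. Over the oocytes of all groups Pearson's r of log2(CPM + 1) with Figla was 0.93 for Zp3, 0.90 for Zp2 and 0.85 for Zp1. After the group means were taken out it was 0.76 for Zp3, 0.60 for Zp2 and 0.31 for Zp1, which placed them above 99.9%, 96.6% and 82.2% of 9835 genes with at least 5 pooled CPM in a group. These oocytes include gonad-derived FGO 19, at 3.45 CPM of Figla where the next of its group was at 36.0. Its part in these values was not tested. Within groups Psmb5 (0.80), Mrps24 (0.77) and Ndufv3 (0.77) had a higher r with Figla than Zp3 had. With the E proteins Tcf3 and Tcf12 r of Figla was 0.66 and 0.76 over all oocytes but 0.10 and 0.09 within groups. For Nobox r within groups was 0.28 with Bmp15, 0.16 with Gdf9, -0.23 with Pou5f1 and -0.35 with Oosp1, above 80.1%, 63.0%, 9.38% and 2.78% of genes. Over all oocytes these values were -0.10, 0.43, -0.27 and -0.50. The oocytes of a group share its source and may share animals or cultures, and the pairs were picked from the known roles after the values had been seen.

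By the rule fixed for naming, the genes most like each member over the oocytes of all groups, up to 3 for each, were taken from 9835 genes. For Figla they were Eef1akmt1 (r = 0.94), Lsm2 (0.93) and Zp3 (0.93). For Tbpl2 they were Snapc2 (0.91), Fyttd1 (0.91) and Dr1 (0.91), of which Dr1 encodes a TBP-binding repressor and Snapc2 a subunit of the complex that starts small nuclear RNA genes. For Taf4b they were Syap1 (0.84), Vapa (0.84) and E130309D02Rik (0.83), and for Sohlh1 they were Haghl (0.80), Rab11b (0.79) and Isyna1 (0.79). For Nobox they were Rpl7l1 (0.76), Prmt7 (0.76) and Rpp30 (0.75). For Sohlh2 they included Taz (0.64) and Vdac1 (0.62). With the group means taken out, the leading genes were Psmb5 for Figla (0.80), Prmt7 for Nobox (0.72), Vapa for Taf4b (0.68), Lsm1 for Tbpl2 (0.68), Map3k20 for Sohlh1 (0.51) and Spg21 for Sohlh2 (0.49). Among the 15 pairs of members, the highest r with group means taken out was 0.60, for Figla and Nobox, both lowest in gonad-derived FGO 19. Within single groups this pair ran from -0.17 in in vivo GROs and 0.05 in 6 dpp FGOs to 0.79 in in vivo and 0.85 in gonad-derived FGOs, where Spearman's rho was 0.49. Sohlh1 and Sohlh2 followed at 0.42.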

How the data were processed

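Single-oocyte Smart-seq2 libraries were measured in the oocytes of 7 groups. The table the authors deposited holds unnormalized counts, 1 column per oocyte, with the exonic length of each gene. Per the study's methods and the submitters' processing notes, reads were aligned with STAR to GRCm38 (mm10) and exonic reads were counted with QuasR. Whether strand was used in counting is not given in the sources used here. Of 21950 genes, 21907 matched a symbol among RefSeq genes (GRCm38.p6). All listed oocytes were used, and 0 columns were left unused.

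The members and lists were chosen with earlier results of these data known. Reads were summed per group and given as CPM with exact Poisson 95% intervals. Ratios are log2 of pooled CPM + 0.5 over genes above 1 CPM in at least 3 oocytes of both groups, called past 2-fold (4-fold given beside it), with no test. Since PCR copies carry no molecular identifier, a read is not an independent molecule, and intervals cover counting error only. All 7 members were to be named, with the 3 genes of highest Pearson's r per member among genes with at least 5 pooled CPM in a group, over all oocytes and after group means were taken out, and list genes past 2-fold. No pair of oocytes in a group had identical counts, and the lowest chi-square per degree of freedom among 1823 pairs was 5.58, so none was counted as 1 library. Alternatives were TMM scaling and a negative binomial coefficient (edgeR 4.0.16), DESeq2 1.42.0 size factors, pseudocounts of 0.1 and 2, medians and means over oocytes, leaving oocytes out, the study's choice of oocytes by size (taken from its supplementary sheet), and no filter. R 4.3.3, Python 3.11.15, numpy 2.4.6, pandas 2.3.3, scipy 1.17.1 and matplotlib 3.10.9 were used. The ratio script was tested on simulated counts with known changes. Motifs and E-boxes were searched in RefSeq windows, and exons were taken from GENCODE M21. A gene that the rule also named is not reported here.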

Additional observations from a re-analysis of the deposited data

How the results depend on the processing

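No paired analysis was possible because the results come from no test and the oocyte numbers in the labels name no shared animal or culture. Of 636 values of 60 member ratios under the alternatives, 27 moved by more than 1.5 times, 24 of them of Sohlh1 and 3 of Tbpl2, and 0 of the called ratios changed sign. The call at 2-fold changed in 6 of these values. The Sohlh2 ratio in growth of iPSC-derived oocytes fell short of it with TMM scaling (-0.97) and on the oocytes kept by size (-0.97). The Taf4b ratio in growth of gonad-derived oocytes passed it with 1 oocyte left out (-1.01). The count of members past 2-fold in IVG@FGO was 0 as reported and 1 with a pseudocount of 0.1 and with the edgeR coefficient, and 0 to 1 when 1 oocyte was left out. That member was Sohlh1, at -1.64, -1.80 and -1.05, while it was 0.03 without in vivo FGOs 5, 7, 19 and 22 and 0.05 as a ratio of medians. It passed the filter there only through the in vivo FGOs, so nothing is drawn from this change of the count. The other 9 counts kept within 1.5 times, and the one for growth of gonad-derived oocytes includes Sohlh1, from which no call is drawn there. The percent of all genes past 2-fold depended on the pseudocount and the fit: it was 3.83 in IVP@GRO as reported, 1.99 with a pseudocount of 2 and 7.21 with the edgeR coefficient, and likewise 7.04, 3.32 and 12.4 in IVD@GRO, 6.21, 3.01 and 11.0 in IVP@FGO, 2.59, 0.979 and 5.75 in IVD@FGO, 4.38, 1.90 and 8.52 in IVG@FGO and 9.99, 5.16 and 15.7 in IVP+IVD@GRO. It was 14.5, with 7.76 at a pseudocount of 2, in iPSC-derived against in vivo FGOs. In growth it was 23.7 in vivo, 15.8 in gonad-derived and 22.0 in iPSC-derived oocytes, and 15.7, 9.82 and 14.6 with a pseudocount of 2. TMM scaling moved the median ratio of all genes in growth of iPSC-derived oocytes from -0.11 to 0.03. Sohlh1 in FGOs rested on 40 to 144 reads per group, which limits its ratios among FGO groups.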
